A study of Mus musculus with 6 samples.

Results

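The 10 genes described here mark macrophages and other myeloid cells. They were taken by symbol: *Spi1*, *Csf1r*, *Cd14*, *Fcgr3*, *Itgam*, *Itgax*, *Adgre1*, *Cd68*, *Lyz2* and *Mpeg1*. All 10 were found among the 35602 genes of the count table and among the 34714 genes of the replicate 1 tables. Macrophages, monocytes, dendritic cells and neutrophils arise from myeloid progenitors, in which the transcription factor PU.1 and growth factors of the colony-stimulating factor family direct differentiation. In the spleen, macrophages clear aged red cells and microbes, and dendritic cells present antigen to T cells. Several of these genes are also transcribed in other leukocytes, with *Spi1* and *Mpeg1* known in B cells and *Itgax* in some activated lymphocytes.

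The cells were mouse CD4+ T cells of the spleen, purified with an isolation kit by the study's methods and sorted by the series text, then cultured with anti-CD3/CD28 stimulation and given either MAPK13-IN-1, an inhibitor of the kinase encoded by *Mapk13*, or its solvent DMSO. RNA was sequenced from 3 libraries of MAPK13-inhibitors-treated and 3 of DMSO-treated CD4+ T cells. Replicates 2 and 3 of each group came from cells of wild-type genotype and were made from 3 µg of RNA purified on poly-T beads, with 17.1 µM inhibitor or 0.1 µl DMSO added after day 1 by the labels, whereas the series design gives 72 h of culture in the presence of either. The replicate 1 pair was made from 2 µg of RNA with a stranded kit, and neither its dose nor its genotype is in its labels. Age and strain are not in the labels of any library. The count table held 26874805 and 28487403 counts for the DMSO-treated libraries and 33854760 and 32617702 for the MAPK13-inhibitors-treated libraries. No label says that the libraries came from separate animals or cultures, so p-values measure only the spread between these samples, which may be technical.

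Most of the 10 genes were higher with the inhibitor. Of the 10 members, 8 were called higher and 0 lower at an adjusted p under 0.05 by edgeR's quasi-likelihood test after Benjamini-Hochberg adjustment, with 2 libraries a group. By the same test, 31.5% of the 16269 genes tested were called higher and 32.3% were called lower, so most genes tested differed between the groups. The median log2 fold change was 1.20 over the members and 0.01 over all genes tested. Both MAPK13-inhibitors-treated libraries lay above both DMSO-treated libraries for 9 of the 10 members, and the same held for 41.7% of all genes tested. All 10 passed the filter on low counts, 9 of them by their level in both DMSO-treated libraries. *Csf1r* passed only by its level with the inhibitor, so its separation by group gives no direction to that tally. In bulk RNA, more cells of a type and more RNA per cell cannot be told apart. The plot of levels by library shows each member.

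**Figure D1:**
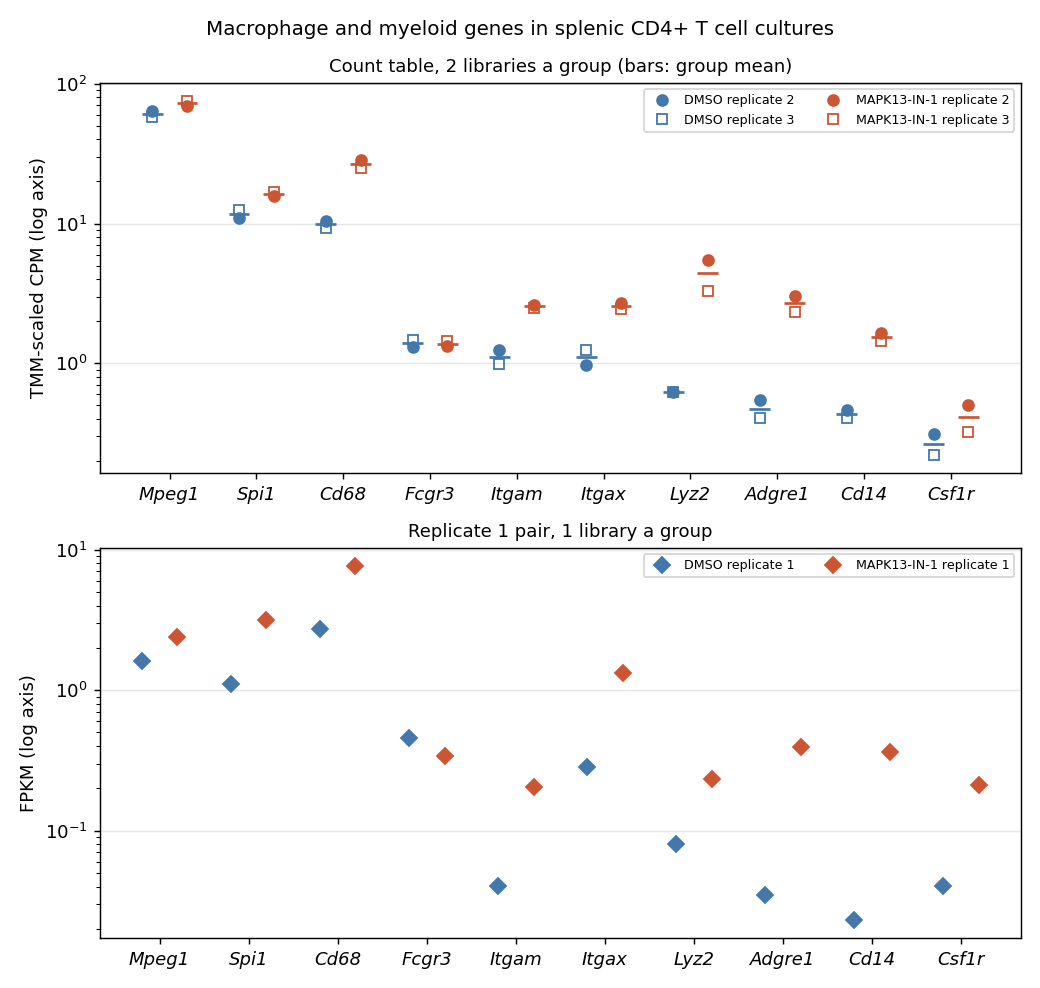
Level of each member in every library, on log axes. The upper panel gives CPM scaled by TMM for replicates 2 and 3, with bars at the group mean, and the lower panel gives FPKM for the replicate 1 pair. *Mpeg1*, *Spi1* and *Cd68* were the most abundant in CPM, and *Fcgr3* alone had overlapping groups in the upper panel.

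*Spi1* (chr2:91082390-91115756, plus strand, GRCm38) encodes PU.1, the transcription factor needed for myeloid and B cell development. It had 283 and 342 counts in the DMSO-treated libraries and 558 and 567 in the MAPK13-inhibitors-treated libraries. The groups did not overlap once scaled, at 11.8 ± 1.13 CPM and 16.2 ± 0.715 CPM (SD, n = 2 each). The log2 fold change of 0.46 (SE 0.117) gave an adjusted p = 0.00561 by edgeR's quasi-likelihood test after Benjamini-Hochberg adjustment. Without DMSO replicate 2, the adjusted p of *Spi1* was 0.0855 by edgeR's quasi-likelihood test after Benjamini-Hochberg adjustment, over the threshold, and over all alternatives, DESeq2 included, it ran from 0.000117 to 0.0855. *Csf1r*, on chromosome 18, encodes the receptor for the macrophage growth factor CSF-1. It had 8 and 6 counts with DMSO and 18 and 11 with the inhibitor, the lowest of the 10 in both groups per gene length. Its log2 fold change of 0.65 (SE 0.536) did not pass edgeR's quasi-likelihood test after Benjamini-Hochberg adjustment (adjusted p = 0.303), which does not show that its levels were alike. With a library left out, the log2 fold change of *Csf1r* ran from 0.41 (without DMSO replicate 3) to 0.92 (without MAPK13_IN_1 replicate 3), and no run that gave it a value called it. Exons of *Csf1r* share 873 of their 5774 bases with *Hmgxb3* on the opposite strand, which had 1591 to 1802 counts a library, and whether the counting used strand is not given in the sources used here.

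Of the receptors for microbial products and antibody, *Cd14* was called and *Fcgr3* was not, and the difference between them was not tested. *Cd14*, on chromosome 18, encodes the co-receptor that hands lipopolysaccharide to Toll-like receptor 4. It had 12 and 11 counts with DMSO and 59 and 49 with the inhibitor. Both MAPK13-inhibitors-treated libraries were above both DMSO-treated libraries, at 1.55 ± 0.153 CPM against 0.435 ± 0.0431 CPM (SD, n = 2 each), and the log2 fold change was 1.83 (SE 0.352, adjusted p = 0.00100 by edgeR's quasi-likelihood test after Benjamini-Hochberg adjustment). *Fcgr3* (chr1:171051174-171064935, minus strand) encodes an activating receptor for IgG. It had 34 and 40 counts with DMSO and 47 and 49 with the inhibitor. After scaling for library size the groups overlapped, at 1.39 ± 0.108 CPM and 1.39 ± 0.0861 CPM (SD, n = 2 each). The log2 fold change was -0.01 (SE 0.279, adjusted p = 0.974 by edgeR's quasi-likelihood test after Benjamini-Hochberg adjustment), and its sign changed with the scaling.

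Both integrin alpha chains among the members were higher with the inhibitor. *Itgam* (chr7:128062640-128118491, plus strand) encodes CD11b, which pairs with the beta 2 chain to bind complement and ICAM-1. It had 32 and 27 counts with DMSO and 93 and 85 with the inhibitor. The log2 fold change was 1.20 (SE 0.261, adjusted p = 0.00227 by edgeR's quasi-likelihood test after Benjamini-Hochberg adjustment), and the groups did not overlap. Its exons share 3450 of 5024 bases on the same strand with the gene model *Gm49368*, so its reads are uncertain where counting could split them. *Gm49368* itself is not listed in the count table. *Itgax* (chr7:128129547-128150657, plus strand) lies next to it and encodes CD11c, a marker of dendritic cells. It had 25 and 34 counts with DMSO and 96 and 83 with the inhibitor. The libraries again separated by group, with a log2 fold change of 1.21 (SE 0.265, adjusted p = 0.00234 by edgeR's quasi-likelihood test after Benjamini-Hochberg adjustment).

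*Adgre1* (chr17:57358691-57483527, plus strand) encodes F4/80, the adhesion receptor used to identify mouse macrophages. It had 14 and 11 counts with DMSO and 108 and 79 with the inhibitor. The groups were far apart relative to their spread, at 0.474 ± 0.0979 CPM and 2.69 ± 0.503 CPM (SD, n = 2 each), and the log2 fold change was 2.50 (SE 0.326, adjusted p = 7.23e-05 by edgeR's quasi-likelihood test after Benjamini-Hochberg adjustment).

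Proteins of lysosomes and of microbial killing made up the remaining members. *Lyz2* (chr10:117277331-117282321, minus strand) encodes lysozyme M, which cleaves bacterial cell walls. It had 16 and 17 counts with DMSO and 195 and 112 with the inhibitor. Its log2 fold change was 2.81 (SE 0.329, adjusted p = 3.29e-05 by edgeR's quasi-likelihood test after Benjamini-Hochberg adjustment), the highest of the 10, while its MAPK13-inhibitors-treated libraries also differed from each other, at 5.49 and 3.31 CPM. The related gene *Lyz1* beside it had 0 and 0 counts with DMSO and 13 and 14 with the inhibitor, and reads shared by this pair are uncertain. *Cd68* (chr11:69664213-69666153, minus strand) encodes a glycoprotein of lysosomes and endosomes. It had 270 and 253 counts with DMSO and 1010 and 849 with the inhibitor. The groups stood apart at 9.89 ± 0.826 CPM and 26.8 ± 2.41 CPM (SD, n = 2 each), a log2 fold change of 1.44 (SE 0.116, adjusted p = 2.56e-06 by edgeR's quasi-likelihood test after Benjamini-Hochberg adjustment). *Mpeg1* (chr19:12460779-12465283, plus strand) encodes perforin-2, a pore-forming protein that acts on engulfed bacteria. It had 1636 and 1583 counts with DMSO and 2467 and 2570 with the inhibitor. Scaled levels were 60.8 ± 3.70 CPM and 72.7 ± 4.48 CPM (SD, n = 2 each), without overlap, and the log2 fold change of 0.26 (SE 0.0757) had an adjusted p = 0.0125 by edgeR's quasi-likelihood test after Benjamini-Hochberg adjustment. Without DMSO replicate 3 the adjusted p of *Mpeg1* was 0.190 by edgeR's quasi-likelihood test after Benjamini-Hochberg adjustment, over the threshold, and over all alternatives, DESeq2 included, it ran from 4.81e-06 to 0.190.

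Levels were compared between members as RPKM, the scaled CPM divided by the kilobases of exon in GENCODE M21. In DMSO-treated cells the order was *Mpeg1* (14.0 ± 0.854 RPKM), *Cd68* (7.87 ± 0.657 RPKM), *Spi1* (4.37 ± 0.420 RPKM), *Fcgr3* (0.803 ± 0.0620 RPKM) and *Lyz2* (0.473 ± 0.00248 RPKM), all SD with n = 2. *Cd14*, *Itgax* and *Itgam* followed at 0.222 to 0.251 RPKM, where neighbours in the order overlapped, and then *Adgre1* (0.146 RPKM) and *Csf1r* (0.0460 RPKM). With the inhibitor *Cd68* came first (21.3 ± 1.91 RPKM), before *Mpeg1* (16.8 ± 1.03 RPKM), *Spi1* (6.02 ± 0.265 RPKM) and *Lyz2* (3.34 ± 1.18 RPKM). *Cd14*, *Adgre1* and *Fcgr3* lay between 0.798 and 0.897 RPKM and each overlapped its neighbour, as did *Itgax* (0.537 RPKM) and *Itgam* (0.510 RPKM). *Mpeg1* thus stood above *Cd68* with DMSO and below it with the inhibitor, and the libraries of these genes did not overlap in either group. *Fcgr3* stood above *Lyz2* with DMSO and below it with the inhibitor, again without overlap. Neither switch was seen in the replicate 1 pair, where *Cd68* stood above *Mpeg1* and *Fcgr3* above *Lyz2* in both libraries.

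The replicate 1 pair, read as FPKM and with 1 library a group, gives these levels on a separate scale without a replicate check. For *Cd68* the DMSO-treated library read 2.72 FPKM and the MAPK13-inhibitors-treated one 7.70 FPKM, with *Spi1* at 1.11 and 3.16 FPKM and *Mpeg1* at 1.61 and 2.40 FPKM. *Itgax* was at 0.282 and 1.33 FPKM. These 4 were the members above 1 FPKM with the inhibitor, and each was higher there than with DMSO. *Adgre1* was at 0.0348 and 0.394 FPKM, *Cd14* at 0.0231 and 0.362 FPKM, and *Lyz2* at 0.0797 and 0.234 FPKM. *Csf1r* was at 0.0404 and 0.209 FPKM, *Itgam* at 0.0406 and 0.205 FPKM, and *Fcgr3* at 0.460 and 0.341 FPKM. All but *Fcgr3* were higher with the inhibitor, 9 of 10 members, where 62.3% of the 21936 genes above 0 in either library were higher. A log2(FPKM + 1) difference over 0.5 was seen for 3 members, *Cd68* (1.23), *Spi1* (0.98) and *Itgax* (0.86), and for 12.4% of all these genes. On that scale, which understates the change of low genes, the median was 0.40 over the members and 0.04 over all genes. With a pseudocount of 0.1, which widens the ratios of low genes, the member median was 1.29. Over the 3 members with at least 1 FPKM in both libraries the median was 0.98. Values over all genes are not given here for these settings. The 8 members called higher in the count table were all higher in this pair, as were 76.0% of the 4959 genes called higher that are listed above 0 here.

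Further genes of the myeloid lineage were called in both directions in the count table. Of 20 other macrophage genes, 6 were tested, 3 were called higher and 1 lower, but the 3 called higher passed the filter on low counts only by their level with the inhibitor, which left no other direction to them. Of these 20, 11 had at most 10 counts in every library, and *Vsig4* and *Trem2* had 0 in all 4 libraries of the count table. *Marco*, a scavenger receptor, had 0 and 4 counts with DMSO and 32 and 18 with the inhibitor, and *Siglec1*, a sialic acid receptor of splenic macrophages, had 0 and 3 against 18 and 23. *Axl*, a receptor for apoptotic cells and the most abundant gene of that list, went the other way in the count table, with 2236 and 2494 counts against 814 and 1095, but was higher with the inhibitor in the replicate 1 pair, at 6.48 and 27.7 FPKM. Among 12 monocyte genes, 7 were tested, of which 1 was called higher and 4 lower, where 31.5% and 32.3% of all genes tested were. Of the 4 called lower, 2 passed the filter only by their level with DMSO and had no other direction. *Ly6c2* had 234 and 242 counts against 132 and 115, and *Fn1*, which encodes fibronectin, had 133 and 128 against 38 and 40. The gene called higher was *Vcan*, with 22 and 20 counts against 138 and 136. *Ms4a6c*, the most abundant of the list, did not pass the test and averaged 52.4 CPM in both groups. In the replicate 1 pair 8 monocyte genes were higher and 3 lower with the inhibitor, and *Fn1* was higher, at 0.0692 and 0.641 FPKM. Neutrophil genes were near 0, with 29 and 33 counts summed over 13 genes with DMSO and 50 and 56 with the inhibitor, and *S100a9* at 0 in all 4 libraries. In the replicate 1 pair these genes summed to 0.818 and 0.551 FPKM, with 4 higher and 7 lower. The 2 neutrophil genes tested passed the filter only by their level with the inhibitor, so that edgeR called both higher gives no direction for the list, and DESeq2 called 0. Of 14 dendritic cell genes, 8 were tested, 4 called higher and 1 lower. Of the 4, 1 passed the filter only by its level with the inhibitor. *Zbtb46*, a transcription factor of conventional dendritic cells, had 395 and 410 counts against 1624 and 1254. *Batf3*, another such factor, was lower in the count table, with 664 and 710 counts against 76 and 120, and was at 26.6 and 35.9 FPKM in the replicate 1 pair. *Cd209a* and *Clec4a4* were at 0 in all 4 libraries. Of the 12 mast cell, basophil and eosinophil genes, 5 were tested and called higher, 2 of which passed the filter only by their level with the inhibitor. They were led by the growth factor receptor *Kit* with 70 and 68 counts against 1059 and 1069, whereas *Mcpt8*, *Fcer1a* and *Prss34* were at 0 in all 4. DESeq2 called 3 of that list, as did edgeR without DMSO replicate 2. In the replicate 1 pair, where 62.3% of the genes above 0 in either library were higher with the inhibitor, 15 of the other macrophage genes were higher and 2 lower, 8 and 1 of the dendritic cell genes, and 5 and 4 of the mast cell, basophil and eosinophil genes, with the rest at 0 in both.

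**Figure D2:**
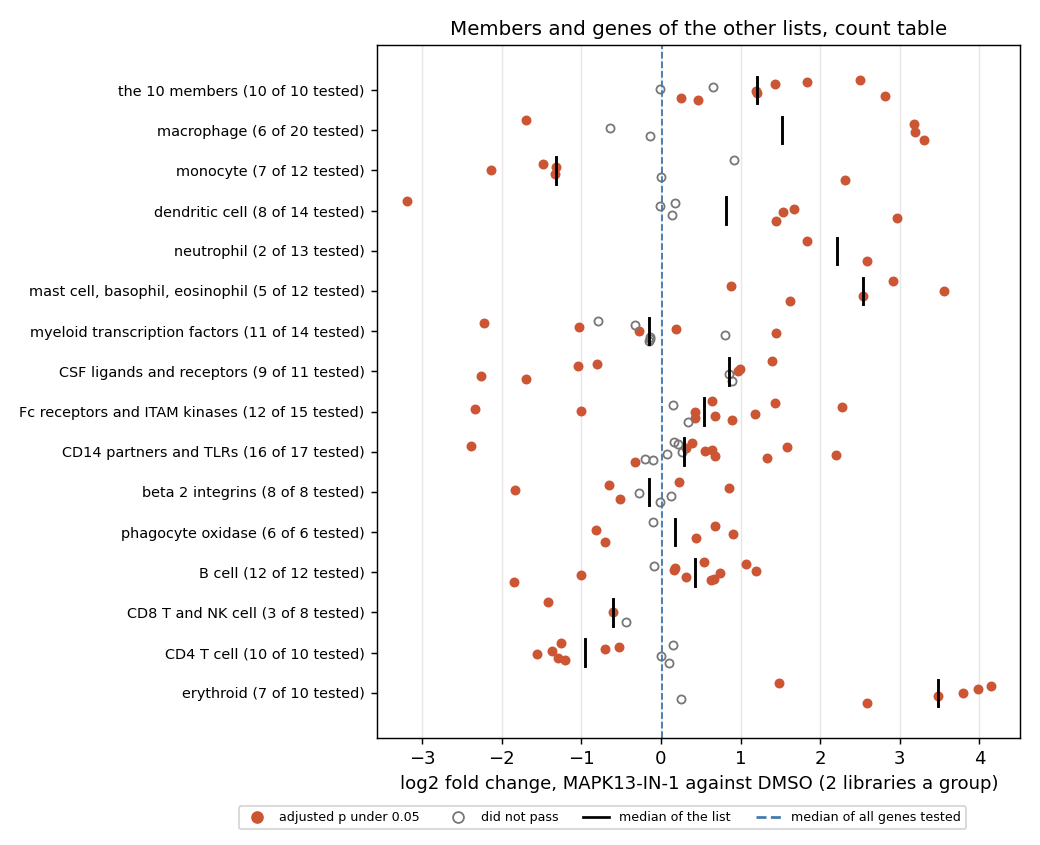
Log2 fold change of the genes tested in each list, with 2 libraries a group. Filled points passed an adjusted p under 0.05 in the edgeR quasi-likelihood test, open points did not, black bars are list medians and the dashed line is the median of all genes tested (0.01). The members have a median of 1.20, and the macrophage, monocyte and dendritic cell lists hold called genes on both sides of 0. The 3 macrophage genes called higher passed the filter on low counts only by their level with the inhibitor, which left no other direction to them.

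Partners of the members also held calls in both directions, to be read beside the 31.5% of all genes tested that were called higher and the 32.3% called lower. Among 14 other myeloid transcription factors, 11 were tested, 2 called higher and 3 lower. Of these 3, 2 were higher with the inhibitor in the replicate 1 pair. They were *Irf8*, at 22.7 and 45.9 FPKM, and *Gfi1*, at 51.3 and 66.5 FPKM. *Klf4*, which acts in monocytes, had 316 and 316 counts with DMSO and 1191 and 1058 with the inhibitor, and *Cebpb*, a factor of the granulocyte and macrophage lineages, had 2183 and 2289 against 513 and 738. For the ligand of the *Csf1r* product, *Csf1*, there were 369 and 425 counts against 1215 and 1503. Of its list of 11 genes, 9 were tested, 3 called higher and 4 lower. Around *Cd14*, 8 of 17 genes were called higher and 2 lower, and DESeq2 or edgeR without DMSO replicate 2 called 6 in all. Of the 17, 16 were tested. Of the 8, 1 passed the filter only by its level with the inhibitor, and of the 2, 1 only by its level with DMSO. *Tlr4* had 150 and 133 counts against 543 and 391, but was lower with the inhibitor in the replicate 1 pair, at 0.258 and 0.150 FPKM. *Ly96*, whose product MD-2 binds lipopolysaccharide beside it, had 40 and 43 counts against 181 and 146, and 2.72 and 6.01 FPKM in the replicate 1 pair. Around *Fcgr3*, 12 of 15 genes were tested, 8 called higher and 2 lower. The inhibitory IgG receptor gene *Fcgr2b* had 598 and 609 counts against 3980 and 3649. Of the 8 genes around *Itgam* and *Itgax*, 2 were called higher and 3 lower, with the ligand gene *Icam1* at 3518 and 3778 counts against 8532 and 8669 and the ligand gene *Icam2* at 526 and 578 against 170 and 233. Also called lower were *Fermt3*, an integrin activator, and *Itgb2*, which encodes the beta 2 chain, at 8662 and 9462 counts against 8070 and 8501 before scaling, 342 and 239 CPM on average. In the replicate 1 pair *Itgb2* was higher with the inhibitor, at 109.6 and 130.2 FPKM. Of the 6 phagocyte oxidase genes, 3 were called higher and 2 lower, with *Rac2*, the most abundant, at 23016 and 23591 counts against 17568 and 20001. By the replicate 1 pair, 62.3% of the genes above 0 in either library were higher with the inhibitor. There, 11 of the transcription factors were higher and 3 lower, 7 and 4 of the colony-stimulating factor list, and 15 and 2 of the genes around *Cd14*. Around *Fcgr3* 12 were higher and 3 lower, 4 and 4 around *Itgam* and *Itgax*, and 5 and 1 of the oxidase genes.

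Markers of other cell types differed between the groups in both directions. Their calls stand beside the 31.5% of all genes tested that were called higher and the 32.3% called lower. For the replicate 1 pair, 62.3% of the genes above 0 in either library were higher with the inhibitor. The members summed to 90.4 and 85.5 CPM with DMSO and 131 and 131 CPM with the inhibitor, and without *Mpeg1*, the most abundant, to 26.9 and 27.2 CPM against 61.5 and 55.6 CPM. Over the same libraries, 12 B cell markers summed to 1017 and 1003 CPM against 1237 and 1249 CPM, with 9 called higher and 2 lower. *Pax5*, their most abundant gene on average over the 4 libraries, had 4585 and 4580 counts against 9332 and 9179, and no B cell marker was at 0 in all 4 libraries. In the replicate 1 pair the B cell markers summed to 55.0 and 38.7 FPKM in the same order, with 10 of 12 lower, while the members summed to 6.40 and 16.3 FPKM. Of 10 erythroid markers, 7 were tested, 6 called higher and 0 lower. Of the 6, 1 passed the filter only by its level with the inhibitor. The 10 markers went from 7.83 and 7.54 CPM in sum to 90.3 and 65.0 CPM. *Hbb-bs* was the most abundant, at 51 and 47 counts against 1048 and 744. CD4 T cell markers summed to 2142 and 2182 CPM with DMSO and 1361 and 1477 CPM with the inhibitor, with 7 of 10 called lower and *Cd5* the most abundant on average over the 4 libraries, though *Cd4* itself did not pass the test, with 7084 and 7497 counts against 9477 and 9594. Of 8 CD8 T and NK cell markers, 3 were tested, with 0 called higher and 2 lower (1 by DESeq2). *Klra8* was at 0 in all 4 libraries and *Cd8b1* was the most abundant. In sum the 8 markers had 13.1 and 13.2 CPM against 7.24 and 9.74 CPM. In the replicate 1 pair they summed to 4.14 and 12.8 FPKM, with 6 of 8 higher with the inhibitor and 0 lower. The erythroid markers summed there to 0.931 and 1.94 FPKM, with 6 higher, 2 lower and 1 at 0 in both. The CD4 T cell markers summed to 1404 and 1290 FPKM, with 5 of 10 higher with the inhibitor and 5 lower. The part of these other cells in the levels of the members was not tested.

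The 5 genes, of 13370 with a mean of at least 1 CPM, whose profile over the 4 libraries was closest to the median profile of the members were *Klhl6*, *Rubcnl*, *Tmem144*, *Rin3* and *Gbp9*. Their root mean square differences from it ran from 0.0188 to 0.0241 on the log2 scale. With 2 libraries a group, a profile holds little beyond the group difference, and log2 fold changes of the 5 ran from 1.10 to 1.20. They were picked for closeness, and shared regulation was not tested. *Klhl6* had 1459 and 1476 counts with DMSO and 4365 and 3873 with the inhibitor.

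Promoter sequences from RefSeq (GRCm38.p6) were matched for 6 of the 10 members, *Fcgr3*, *Itgam*, *Itgax*, *Lyz2*, *Cd68* and *Mpeg1*, and not for *Spi1*, *Adgre1*, *Cd14* and *Csf1r*. The 250 bases before each start were searched on both strands for GAGGAAGT, an ETS core of the kind PU.1 binds, and for GAGGAA, which it contains. The longer motif was in 2.44% of 32851 promoters and in 0 of the 7 member promoters. The shorter one was in 23.3% of all and in 4 of the 7, those of *Itgam* and *Cd68* and both of *Fcgr3*. Shown here, 5′ to 3′ on the strand of the gene and with GAGGAA or its reverse complement TTCCTC in capitals, are the upstream bases of the called members that hold it, *Itgam* (chr7:128062390-128062639, plus strand) and *Cd68* (chr11:69666171-69666420, minus strand), and of *Lyz2* (chr10:117282322-117282522, minus strand), which rose most and does not hold it.
Itgam: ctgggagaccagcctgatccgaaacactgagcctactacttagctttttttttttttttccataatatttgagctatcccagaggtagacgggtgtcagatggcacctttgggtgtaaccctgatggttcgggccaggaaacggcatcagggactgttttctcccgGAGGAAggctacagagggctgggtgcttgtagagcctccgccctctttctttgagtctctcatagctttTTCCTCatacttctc
Cd68: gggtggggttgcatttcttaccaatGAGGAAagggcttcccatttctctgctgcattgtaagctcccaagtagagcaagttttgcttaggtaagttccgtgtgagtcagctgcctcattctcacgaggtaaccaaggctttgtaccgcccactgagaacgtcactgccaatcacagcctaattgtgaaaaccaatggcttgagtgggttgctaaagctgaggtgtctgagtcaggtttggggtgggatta
Lyz2: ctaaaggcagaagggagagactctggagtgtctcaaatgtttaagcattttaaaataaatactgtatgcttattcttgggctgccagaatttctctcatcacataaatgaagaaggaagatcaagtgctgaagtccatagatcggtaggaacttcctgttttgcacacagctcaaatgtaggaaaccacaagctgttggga
In *Itgam* the motif begins 84 bases before the start on the gene's strand and 15 bases before it on the other, and in *Cd68* it begins 225 bases before the start. A match of letters is a description and not a binding site.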

How the data were processed

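Libraries were grouped by their labels. For replicates 2 and 3 the authors deposited raw counts per gene, and the submitters' processing notes name fastp 0.21.0, HISAT2 2.1.0, StringTie 2.1.5, DESeq2 1.30.1 and mm10. If StringTie made the counts, they derive from transcript coverage. The values the authors deposited for the replicate 1 pair are read here as FPKM. That unit was inferred, since the values are not whole and sum to 405150 and 390729, and the ratio of CPM (replicate 2 of each group) to them rose with gene length (Spearman's rho 0.568 and 0.540 across 9891 and 9818 genes, which are not independent replicates). The notes of this pair name FastQC, HISAT2, GRCm38 and mm10. The design foresaw its use in the fit only as counts, so it has no test, and its log2 ratios use a pseudocount of 1.

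The count table was fitted with edgeR 4.0.16 (R 4.3.3) after filterByExpr (minimum count 10, minimum total 15), with TMM factors of 0.960, 0.955, 1.05 and 1.04. The quasi-likelihood test compared 2 against 2 libraries and was adjusted over 16269 genes. The fit was also run on simulated data in which few genes changed. That run does not test the scaling where most genes differ, as here. CPM is scaled by TMM, and 3 counts correspond to 0.0845 to 0.116 CPM. The SE is the unshrunk log2 coefficient over the square root of the F statistic. Likeness of profiles used log2 CPM with a pseudocount of 0.1. Replicates differed beyond counting noise (mean chi-square per gene 2.78 and 7.44). Exon lengths and positions are from GENCODE M21, and bases in its exons were trimmed from the promoters shown.

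Named genes are the members, up to 4 genes of each list (the most abundant and the 3 with the smallest p), genes at 0 in every library, and the 5 closest profiles. Not every gene that meets this rule is reported here. *Lyz1*, *Hmgxb3*, *Gm49368*, *Itgb2* and *Cd4* were named after their values were seen. *Trac*, *Trbc1* and *Trbc2* were not found by symbol. Members and lists were chosen with earlier results of these data known. Alternatives were other scalings, filters and thresholds, DESeq2 1.42.0, a replicate block, each library left out, and a pseudocount of 0.1.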

Additional observations from a re-analysis of the deposited data

How the results depend on the processing

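Between 6 and 8 members were called higher under every alternative run. It was 7 at an adjusted p under 0.01, where 3916 of 16269 genes tested were called higher. With an absolute log2 fold change over 1 it was 6. The median over the members ran from 1.17 to 1.33. Calls among all genes were 3799 (2113 higher, 1686 lower) with an absolute log2 fold change over 1, a narrower threshold, against 10374. The split of calls was 5122 higher and 5252 lower, 5823 and 4633 with upper-quartile scaling, and 6176 and 4302 with library totals, which moved the median of all genes from 0.01 to 0.14 and that of the members to 1.33. The log2 fold change of *Fcgr3* turned positive with RLE (0.0023), upper-quartile (0.069) and library-total scaling (0.11), with at least 10 counts in every library (0.033), and ran from -0.10 to 0.061 with a library left out. The cause was not tested. *Mpeg1* and *Spi1* each lost their call when 1 DMSO library was left out, and *Csf1r* had no value without MAPK13_IN_1 replicate 2 or with at least 10 counts in every library. Where a library was left out, the lone library was assumed to vary like the other group.

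With DESeq2 the calls were 0 of the neutrophil genes (against 2), 3 of the mast cell, basophil and eosinophil genes (against 5), 6 of the CD14 partners (against 10) and 1 of the CD8 T and NK cell markers (against 2). With a library left out they ran from 1 to 2 for neutrophil genes, 3 to 5 for mast cell, basophil and eosinophil genes, and 6 to 11 for CD14 partners.

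With a pseudocount of 0.1, log2 ratios in the replicate 1 pair were 0.89 for *Lyz2*, 1.87 for *Adgre1*, 1.47 for *Cd68*, 0.54 for *Mpeg1*, 1.14 for *Csf1r*, 1.91 for *Cd14*, 1.12 for *Itgam*, 1.91 for *Itgax*, -0.34 for *Fcgr3* and 1.43 for *Spi1*, with a median of 1.29 against 0.40. Over the 3 members with at least 1 FPKM in both libraries the median was 0.98.

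A replicate block called 8 members higher with a median of 1.21, and 10645 genes in all (5261 higher, 5384 lower). The labels do not say that a number pairs samples, and deviations of same-numbered libraries correlated at -0.0064 across genes.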
